A study of Rattus norvegicus with 15 samples.

Results

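The genes described here are 36 genes that mark astrocytes in brain tissue or carry out their main tasks, listed by symbol. For each listed gene, the probe set whose platform annotation gives that symbol alone was taken, and the brightest would have been kept where a gene had more than 1. Of the 36 listed genes, 33 were measured, each by 1 probe set, among 14506 genes with a name of their own on the array. The expression of *Glul*, which encodes glutamine synthetase, of *Sox9*, a transcription factor of the astrocyte lineage, and of *Hepacam*, which encodes a glial adhesion protein, is not analysed here. RNA from the inferior colliculus (IC), the midbrain auditory nucleus from which audiogenic seizures start, was hybridized to Affymetrix Rat Gene 1.0 ST arrays in 15 samples. The groups were sound-stimulated Wistar Audiogenic Rats (WAR S, n = 5), sound-stimulated Wistar rats (Wistar S, n = 2), naïve WAR (WAR N, n = 4) and naïve Wistar rats (Wistar N, n = 4). WAR is a strain selectively bred from Wistar rats for seizures triggered by loud sound, and Wistar rats are the control stock. The study describes seizures in its sound-stimulated WAR and none in its sound-stimulated Wistar rats. Strain and seizure therefore cannot be told apart in the stimulated arrays or in a test that uses them. All rats were males of 12 weeks, and no deletion, transgene or drug is given for any group. The labels give tissue collection at 60 min after seizures, and their protocol describes sound for all animals although the arrays of the naïve groups carry the label of no treatment, and each array was taken as its own label gives it. The labels also give different providers for the WAR and the Wistar rats, so that strain and provider cannot be told apart, whereas the study's methods name a single animal facility for both strains. The methods also count more sound-stimulated rats of each strain than there are stimulated arrays here. The labels call the arrays biological replicates, but no source used here says whether an array stands for a single rat, so that the p-values measure the spread between these samples.

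Astrocytes clear the extracellular space around active synapses. They take up glutamate through sodium-driven transporters, pass on potassium through inwardly rectifying channels and the sodium pump, move water through channels on the endfeet that wrap blood vessels, and share ions and metabolites through gap junctions. After injury or seizures they can become reactive, a state in which intermediate filament and other structural genes are commonly raised. The question addressed to these genes was whether WAR and Wistar rats differed in the IC, with and without sound, and whether the members that clear potassium, water and glutamate behaved like the structural and reactive ones.

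The deposited values are on a log2 scale, so that a difference of 1 is a factor of 2, and a log2 fold change is the WAR mean minus the Wistar mean. Array medians over all probe sets lay between 7.21 and 7.27 among stimulated arrays and between 7.01 and 7.14 among naïve arrays. Each of the 21 pairs of stimulated arrays shared identical values in 2675 to 3286 probe sets. The 28 pairs of naïve arrays shared 2 to 13, and the 56 pairs of a stimulated and a naïve array shared 0. Stimulated and naïve arrays thus appear to have been processed differently, though these counts do not show at which step. Strains were therefore compared within the stimulated and within the naïve arrays only, and levels of a gene are not compared between them. Identical values make the spread among stimulated arrays smaller, and 7 of the 33 astrocyte genes held any, against 58.0% of all genes. They were *Mlc1*, *Aqp4*, *S100b*, *Fgfr3*, *Slc4a4*, *Ndrg2* and *Entpd2*. In *Aqp4* and *Slc4a4* a value was identical between WAR S and Wistar S arrays, which also draws the strains together. Replicate 1 of Wistar N stood apart from its group. On the first principal component of the naïve arrays (62.8% of the variance) it lay at −23.2, beside the WAR N arrays at −22.7 to −12.7 and away from the other Wistar N arrays at 32.0 to 36.9. It was nearer to the WAR N mean than to the mean of the other Wistar N arrays in 20 of the 33 astrocyte genes, against 9760 of all 14506 genes (67.3%). The naïve values of the astrocyte genes, and those of other genes printed with a log2 fold change, are therefore given with and without this array. Because whole tissue was measured, fewer astrocytes and less RNA per astrocyte cannot be told apart.

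In the stimulated arrays most astrocyte genes had lower values in WAR than in Wistar rats, but none passed the test alone. Of the 33 genes, 0 were called at an adjusted p of 0.05 in limma, where 0.414% of all genes were called (0.2% lower and 0.214% higher). An unadjusted p of at most 0.05 was reached by 12 of 33, against 6.85% of all genes. The log2 fold change was negative in 27 of 33 genes, against 44.4% of all genes, and its median was −0.25, against 0.01 over all genes. In 18 genes every WAR S array lay below both Wistar S arrays, where 8.22% of all genes did, and in 1 gene, *F3*, every WAR S array lay above both, where 12.4% of all genes did. The mean log2 level over the 33 genes lay between 10.54 and 10.73 in WAR S arrays, against 10.82 and 10.85 in the Wistar S arrays, without overlap. The lowest log2 fold changes were those of *Kcnj10* (−0.76), *Plpp3* (−0.67) and *Atp1b2* (−0.61), and *F3* had the highest (0.69). Arrays were also weighted by how closely their own values followed the group means, without a separate measure of quality. With these array weights 15 astrocyte genes were lower and 1 was higher, where 3.97% of all genes were lower and 5.91% higher. When the 2 stimulated groups alone were fitted, 2 were lower (*Kcnj16* and *Mlc1*) and 1 was higher (*F3*), where 0.703% of all genes were lower and 1.19% higher. Without replicate 1 of Wistar N, whose values enter only through the spread that all groups share, 2 were lower (*Plpp3* and *Mlc1*), where 0.703% of all genes were.

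In the naïve arrays 12 of the 33 astrocyte genes were lower in WAR N and 1 was higher. Over all genes, 20.9% were called, 9.38% lower and 11.6% higher. The lower ones were *Atp1b2*, *Kcnj16*, *Aldh1l1*, *Bmpr1b*, *Mlc1*, *Ntsr2*, *Sdc4*, *Acsbg1*, *Plpp3*, *Gjb6*, *Slc1a3* and *Cbs*, with log2 fold changes of −1.16 to −0.32, and the higher one was *F3* (0.76). The median log2 fold change of the 33 genes was −0.32, against 0.02 over all genes. Their mean log2 level lay between 10.35 and 10.51 in WAR N arrays and between 10.59 and 10.74 in Wistar N arrays, again without overlap. In 10 genes the groups did not overlap with WAR N lower, where 5.51% of all genes did so, and in 1 gene with WAR N higher, where 7.93% did. Without replicate 1 of Wistar N, 14 astrocyte genes were lower and 6 higher, and 41.1% of all genes were called (18.5% lower and 22.6% higher). All 13 genes called with every array stayed called without it. This is no independent check, since that array was singled out from these same values. The genes added were *Gpc5* and *Fgfr3*, which were lower, and *Slc1a2*, *Slc25a18*, *Ndrg2*, *Entpd2* and *Ttyh1*, which were higher. Without it, 16 astrocyte genes had every WAR N array below the other Wistar N arrays, where 16.6% of all genes did, and 6 had every one above, where 21.7% did. Array weights gave 14 lower and 3 higher astrocyte genes, where 15.3% of all genes were lower and 16.9% higher. When the 2 naïve groups alone were fitted, 5 were lower (*Atp1b2*, *Aldh1l1*, *Ntsr2*, *Acsbg1* and *Plpp3*) and 1 was higher (*F3*), where 2.82% of all genes were lower and 3.24% higher.

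**Figure D1:**
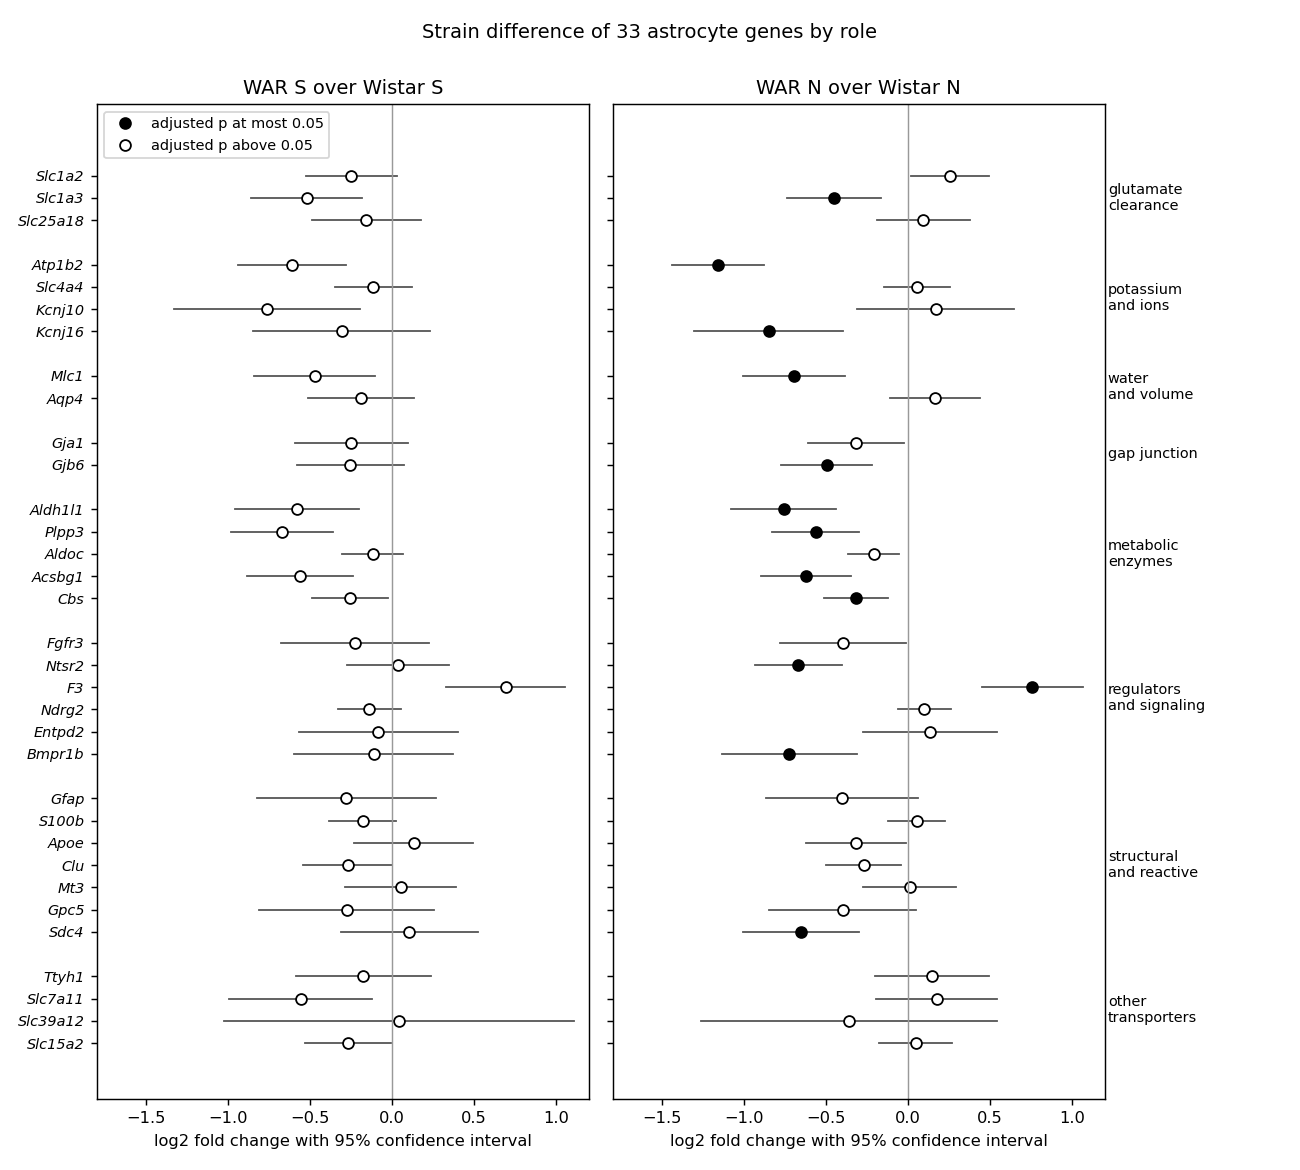
Log2 fold changes (points, horizontal axis) with 95% confidence intervals (lines) of the 33 measured astrocyte genes, grouped by role down the page, for WAR S over Wistar S at the left and WAR N over Wistar N at the right. Filled points passed an adjusted p of 0.05, which 0 genes did in the stimulated and 13 in the naïve arrays, and 27 stimulated and 20 naïve values lie left of 0.

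**Figure D2:**
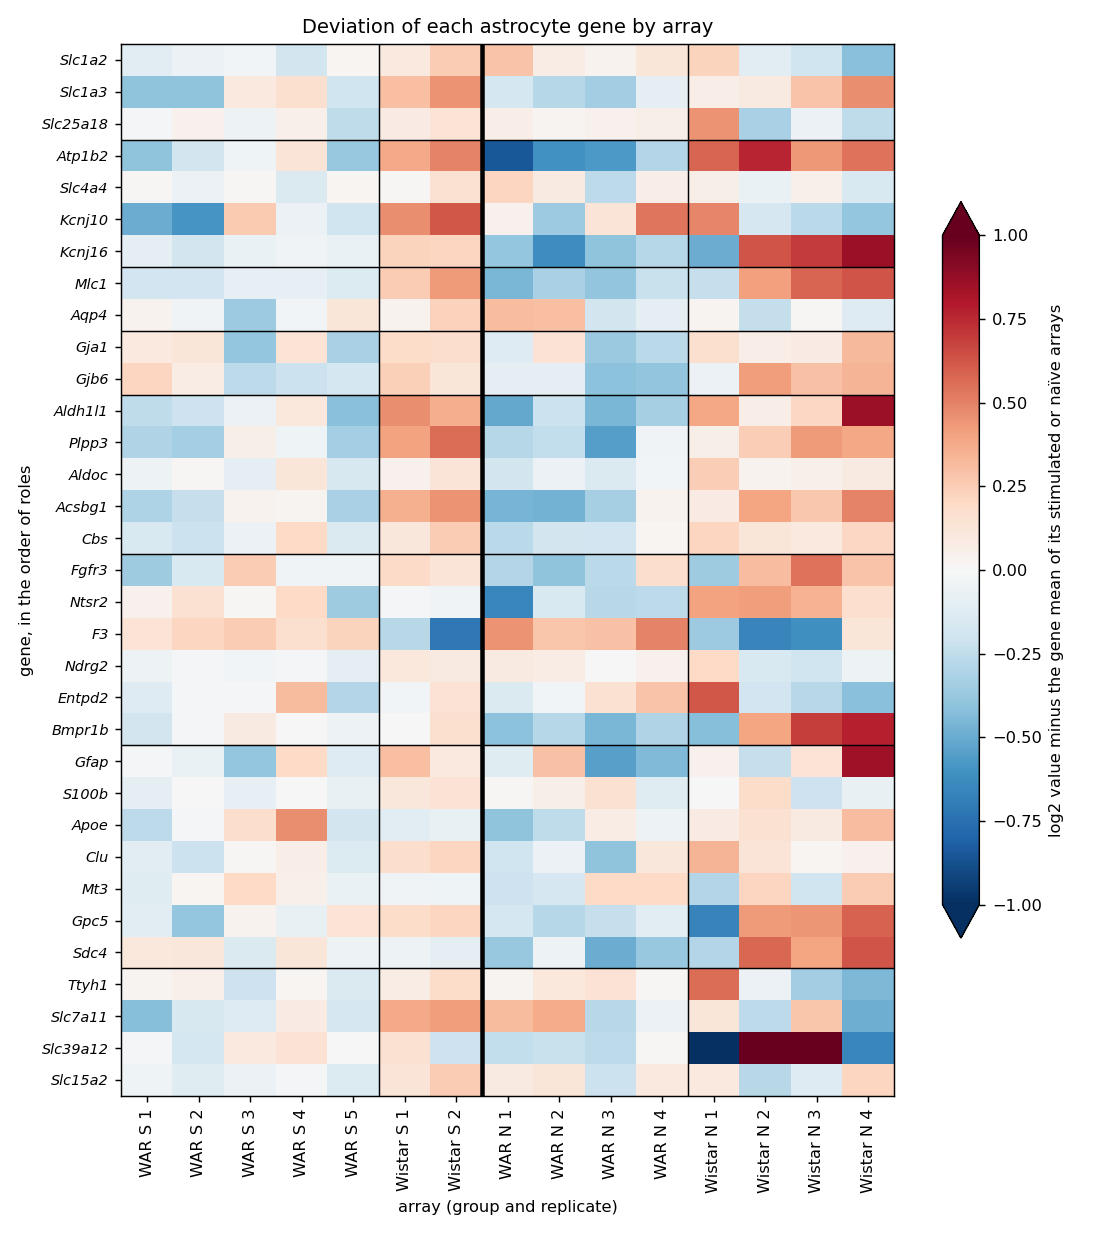
Deviation of each astrocyte gene (rows, ordered by role) in each array (columns) from the mean of that gene over its stimulated or naïve arrays, as a color on the log2 scale, with the thick line between the stimulated and the naïve arrays. Replicate 1 of Wistar N differs from the other Wistar N arrays in *Kcnj16*, *Bmpr1b*, *Gpc5* and *Sdc4*, and is like them in *Atp1b2*, *Ntsr2* and *Aldh1l1*.

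Of the 7 genes that were lower in WAR N and whose stimulated groups did not overlap with WAR S lower, the upstream stretches of 4 are shown, chosen because they hold a motif of the nuclear factor I (NFI) proteins, transcription factors that act in astrocyte formation. Those of the other 3, *Atp1b2*, *Kcnj16* and *Aldh1l1*, hold 0 such motifs. Each is the stretch of 250 bases before a transcript start that RefSeq annotates on GRCr8, the first listed for the gene, written 5′ to 3′ on the strand of the gene, and capitals mark the NFI motif TTGGC or its reverse complement. The stretches are those of *Slc1a3* (chr2:59557809-59558058, minus strand), *Mlc1* (chr7:121946699-121946948, minus strand), *Acsbg1* (chr8:63943279-63943528, minus strand) and *Plpp3* (chr5:125155750-125155999, plus strand). The stretches of *Slc1a3* and *Plpp3* end at the annotated start of the gene, whereas that of *Mlc1* lies wholly, and that of *Acsbg1* mostly, inside the annotated gene, before the start of an inner transcript. Of the 3 without the motif, that of *Atp1b2* ends at the annotated start of the gene and that of *Aldh1l1* reaches past it. The *Kcnj16* stretch lies wholly inside the annotated gene, before the start of an inner transcript.
Slc1a3: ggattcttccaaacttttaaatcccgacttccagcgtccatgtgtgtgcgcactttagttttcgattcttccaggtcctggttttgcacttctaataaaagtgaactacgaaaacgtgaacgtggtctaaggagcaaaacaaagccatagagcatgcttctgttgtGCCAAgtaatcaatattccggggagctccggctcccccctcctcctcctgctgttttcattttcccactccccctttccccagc
Mlc1: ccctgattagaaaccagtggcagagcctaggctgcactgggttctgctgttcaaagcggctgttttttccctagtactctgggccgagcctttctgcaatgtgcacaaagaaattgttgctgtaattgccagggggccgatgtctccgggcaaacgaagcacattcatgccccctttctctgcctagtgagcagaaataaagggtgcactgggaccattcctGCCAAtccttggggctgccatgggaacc
Acsbg1: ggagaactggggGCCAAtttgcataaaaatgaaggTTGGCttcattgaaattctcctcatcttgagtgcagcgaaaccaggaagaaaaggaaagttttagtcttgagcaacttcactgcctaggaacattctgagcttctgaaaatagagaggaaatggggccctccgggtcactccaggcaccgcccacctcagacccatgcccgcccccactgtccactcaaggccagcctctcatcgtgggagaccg
Plpp3: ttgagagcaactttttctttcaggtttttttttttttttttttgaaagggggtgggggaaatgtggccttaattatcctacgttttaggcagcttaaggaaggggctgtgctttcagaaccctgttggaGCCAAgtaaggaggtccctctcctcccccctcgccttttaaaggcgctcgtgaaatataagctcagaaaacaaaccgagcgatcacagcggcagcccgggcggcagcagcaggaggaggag
Of 32 listed genes with an entry in the promoter table, 18 held the NFI motif on either strand (56.2%), against 40.3% of 27457 promoters of the same length. The 32 include *Glul* and *Hepacam*, whose expression is not analysed here, and *Hepacam* is among the 18. A STAT motif, TTCNNNGAA, lay in 2 of the 32 (6.25%), against 7.52% of all promoters, and the SOX core ACAATG lay in 0 of the 32, against 10.9%. No match of one motif overlapped a match of another in these 32 stretches. The *Acsbg1* stretch held 2 NFI motifs and a STAT motif, and those of *Slc1a3*, *Mlc1* and *Plpp3* held 1 NFI motif each. These matches describe letters in the sequence, and binding was not measured.

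Glutamate clearance was represented by 3 measured genes. *Slc1a2* (probe set 10838130) encodes the main glutamate transporter of astrocytes, and its log2 values were 12.59, 12.64, 12.67, 12.51 and 12.72 in WAR S, against 12.80 and 12.95 in Wistar S. Both Wistar S arrays lay above all WAR S arrays, by a margin smaller than the spread within WAR S, and the log2 fold change was −0.25 (SE 0.13, adjusted p = 0.854), where SE is the standard error. Naïve values were 12.70, 12.49, 12.46 and 12.54 in WAR N, against 12.64, 12.30, 12.22 and 12.00 in Wistar N. Replicate 1 of Wistar N lay among the WAR N arrays and the other 3 lay below all of them, the opposite order to that of the stimulated arrays. The log2 fold change was 0.26 (SE 0.11, adjusted p = 0.114) with all arrays and 0.37 (adjusted p = 0.00307) without replicate 1 of Wistar N. *Slc1a3* (probe set 10821824), the second astrocyte glutamate transporter, held 10.08, 10.09, 10.59, 10.65 and 10.29 in WAR S, against 10.78 and 10.93 in Wistar S. Every WAR S array was below both Wistar S arrays, the 3 lowest being replicates 1, 2 and 5, with a log2 fold change of −0.52 (SE 0.16, adjusted p = 0.285). The naïve values of *Slc1a3* were 10.36, 10.24, 10.18 and 10.44 in WAR N, against 10.60, 10.62, 10.82 and 11.001 in Wistar N. All WAR N arrays were below all Wistar N arrays, replicate 1 of Wistar N included. *Slc1a3* was lower in WAR N with a log2 fold change of −0.45 (SE 0.13, adjusted p = 0.0284), and of −0.51 (adjusted p = 0.00950) without that array. The call of *Slc1a3* was lost without replicates 1, 2 or 3 of WAR N (adjusted p = 0.0533, 0.0618 and 0.0789) and without replicates 3 or 4 of Wistar N (adjusted p = 0.0736 and 0.0851). *Slc25a18*, which encodes a mitochondrial glutamate carrier, had log2 fold changes of −0.16 (SE 0.16, adjusted p = 1.00) in the stimulated and 0.10 (SE 0.13, adjusted p = 0.647) in the naïve arrays. Without replicate 1 of Wistar N, its naïve value was 0.26 (adjusted p = 0.0186).

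Of the 4 genes for potassium and ions, *Atp1b2* had the lowest naïve value of all astrocyte genes. *Atp1b2* (probe set 10744098) encodes a beta subunit of the sodium pump that glia carry, also known as a glial adhesion molecule. Its values were 10.86, 11.08, 11.21, 11.39 and 10.88 in WAR S, against 11.64 and 11.75 in Wistar S. The groups did not overlap, and the log2 fold change was −0.61 (SE 0.15, adjusted p = 0.135). Naïve arrays read 10.74, 10.98, 11.01 and 11.29 in WAR N, against 12.17, 12.34, 12.02 and 12.13 in Wistar N. Each of the 4 Wistar N arrays, replicate 1 among them, lay above each WAR N array, and the gap between the groups was wider than the spread within either. *Atp1b2* was lower in WAR N by a log2 fold change of −1.16 (SE 0.13, adjusted p = 0.000235), a ratio of 0.448, and it was the only measured astrocyte gene that met the thresholds of the study's methods, a fold of 2 together with an unadjusted p of 0.05, which 1.76% of all genes met. The value without replicate 1 of Wistar N was −1.16 (adjusted p = 1.8e-05).

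*Kcnj10* and *Kcnj16* encode inwardly rectifying potassium channel subunits that can assemble with each other in astrocytes. *Kcnj10* (probe set 10765740) had 10.21, 10.11, 10.97, 10.64 and 10.50 in WAR S, against 11.17 and 11.33 in Wistar S. WAR S had its widest spread of all 33 genes here, with replicates 1 and 2 lowest and replicate 3 highest, and all 5 arrays were below Wistar S. Its log2 fold change was −0.76 (SE 0.26, adjusted p = 0.416), the lowest of the stimulated values. Naïve *Kcnj10* values were 10.41, 10.01, 10.49 and 10.90 in WAR N, against 10.86, 10.20, 10.10 and 9.98 in Wistar N. There the groups overlapped, and replicate 1 of Wistar N lay well above the others of its group. The naïve log2 fold change was 0.17 (SE 0.22, adjusted p = 0.632) with all arrays and 0.36 (adjusted p = 0.170) without that array. *Kcnj16* (probe set 10739351) showed 9.91, 9.82, 9.93, 9.96 and 9.94 in WAR S, against 10.22 and 10.22 in Wistar S. Both Wistar S arrays were higher than every WAR S array and the spread within WAR S was small, for a log2 fold change of −0.31 (SE 0.25, adjusted p = 1.00). That SE rests on the spread shared by all groups, the naïve ones included. When the stimulated groups alone were fitted in limma, the SE was 0.045 (adjusted p = 0.0321), where 0.703% of all genes were called lower. Naïve *Kcnj16* values were 9.84, 9.61, 9.82 and 9.94 in WAR N, against 9.73, 10.85, 10.92 and 11.09 in Wistar N. Replicate 1 of Wistar N lay inside the range of WAR N, and the other 3 Wistar N arrays lay far above it. *Kcnj16* was lower in WAR N, with −0.85 (SE 0.21, adjusted p = 0.0128) over all arrays and −1.16 (adjusted p = 1.5e-07) without replicate 1 of Wistar N. *Slc4a4*, the gene of a sodium bicarbonate cotransporter, had log2 fold changes of −0.11 (SE 0.11, adjusted p = 1.00) in the stimulated and 0.06 (SE 0.09, adjusted p = 0.71) in the naïve arrays, and 0.09 (adjusted p = 0.523) there without replicate 1 of Wistar N.

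Both water and volume genes measured are membrane proteins of astrocyte endfeet. *Mlc1* (probe set 10906079), whose human counterpart is mutated in a leukoencephalopathy with brain swelling, had log2 values of 10.78, 10.78, 10.89, 10.89 and 10.83 in WAR S, against 11.22 and 11.39 in Wistar S. The WAR S arrays lay close together, replicates 3 and 4 with an identical value that narrows the spread, and all were below Wistar S. Its log2 fold change was −0.47 (SE 0.17, adjusted p = 0.452), and it passed the threshold when replicate 1 of Wistar N, which enters only through the spread shared by all groups, was left out (adjusted p = 0.00996). In naïve arrays *Mlc1* had 10.53, 10.66, 10.59 and 10.76 in WAR N, against 10.75, 11.40, 11.57 and 11.61 in Wistar N. Replicate 1 of Wistar N was at the level of the highest WAR N array, and the other 3 were higher. *Mlc1* was lower in WAR N, at −0.70 (SE 0.14, adjusted p = 0.00500), and −0.89 (adjusted p = 8.1e-07) without that replicate. *Aqp4* (probe set 10803305), the main water channel of the brain, read 12.57, 12.50, 12.17, 12.51 and 12.65 in WAR S, against 12.57 and 12.77 in Wistar S. The strains overlapped, with replicate 3 of WAR S lowest, and the log2 fold change was −0.19 (SE 0.15, adjusted p = 1.00). In the naïve groups *Aqp4* read 12.68, 12.67, 12.19 and 12.27 in WAR N, against 12.39, 12.13, 12.38 and 12.24 in Wistar N. WAR N fell into a higher pair (replicates 1 and 2) and a lower pair (replicates 3 and 4), the range of the lower pair lay within that of Wistar N, and the log2 fold change was 0.17 (SE 0.13, adjusted p = 0.383), and 0.20 (adjusted p = 0.259) without replicate 1 of Wistar N. For *Aqp4* the 95% confidence interval was −0.51 to 0.13 in the stimulated and −0.11 to 0.44 in the naïve arrays.

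**Figure D3:**
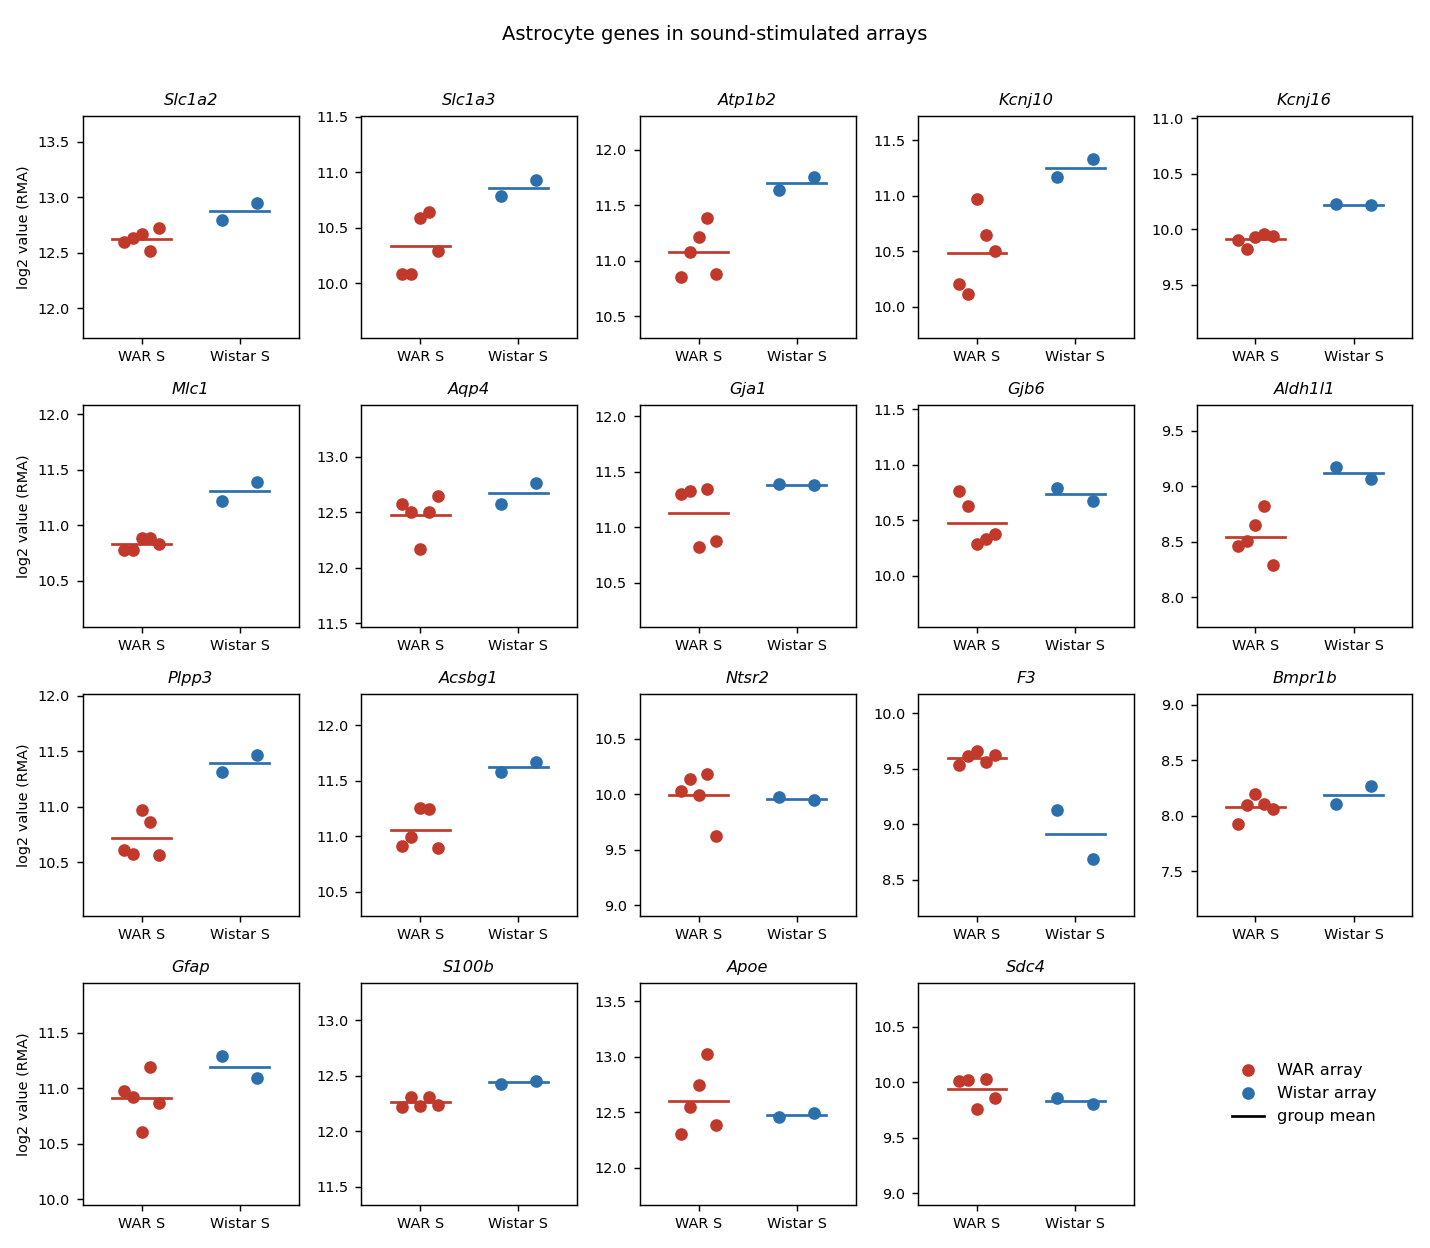
Log2 values (vertical axes, each spanning at least 2 log2 units) of 19 astrocyte genes in the stimulated arrays, 5 WAR S arrays at the left and 2 Wistar S arrays at the right of each panel, with group means as lines. In *Slc1a3*, *Atp1b2*, *Kcnj10*, *Mlc1*, *Aldh1l1*, *Plpp3* and *Acsbg1* every WAR S array lies below both Wistar S arrays, and in *F3* every one lies above.

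The gap junction genes encode the connexins that couple astrocytes. *Gja1* (probe set 10830189) had 11.30, 11.32, 10.82, 11.34 and 10.88 in WAR S, against 11.39 and 11.38 in Wistar S. The Wistar S arrays were just above the highest WAR S arrays, and replicates 3 and 5 of WAR S were the lowest. Its log2 fold change was −0.25 (SE 0.16, adjusted p = 1.00). The naïve arrays of *Gja1* had 10.83, 11.11, 10.59 and 10.70 in WAR N, against 11.12, 11.03, 11.05 and 11.29 in Wistar N. Replicate 2 of WAR N lay inside the Wistar N range and the other 3 below it, for a log2 fold change of −0.32 (SE 0.14, adjusted p = 0.115), and −0.32 (adjusted p = 0.102) without replicate 1 of Wistar N. Without replicate 2 of WAR N, *Gja1* passed the threshold (−0.42, adjusted p = 0.0466). *Gjb6* (probe set 10784120) had 10.77, 10.63, 10.29, 10.33 and 10.37 in WAR S, against 10.79 and 10.67 in Wistar S. Replicate 1 of WAR S lay between the Wistar S arrays and the others below both, with a log2 fold change of −0.26 (SE 0.15, adjusted p = 0.986). In naïve arrays *Gjb6* had 10.42, 10.41, 10.10 and 10.11 in WAR N, against 10.45, 10.93, 10.80 and 10.84 in Wistar N. All WAR N arrays were lower, replicates 1 and 2 by a small margin to replicate 1 of Wistar N. *Gjb6* was lower in WAR N at −0.50 (SE 0.13, adjusted p = 0.0156), and −0.60 (adjusted p = 0.00108) without that Wistar N array, and lost the call without replicate 2 of Wistar N (adjusted p = 0.0509).

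All 5 metabolic enzymes had negative log2 fold changes in both comparisons, and 4 of them were lower in WAR N. Over all genes, 44.4% were negative in the stimulated and 45.5% in the naïve arrays, and 9.38% were lower in WAR N. *Aldh1l1* (probe set 10940520), a folate enzyme used as a general astrocyte marker, had 8.46, 8.50, 8.65, 8.82 and 8.29 in WAR S, against 9.18 and 9.07 in Wistar S. Every WAR S array was lower than both Wistar S arrays, with a log2 fold change of −0.58 (SE 0.18, adjusted p = 0.287). The naïve values were 8.19, 8.49, 8.25 and 8.37 in WAR N, against 9.09, 8.77, 8.91 and 9.55 in Wistar N. Replicate 1 of Wistar N sat within its own group in *Aldh1l1*, replicate 4 was the highest, and no WAR N array reached the lowest of them. *Aldh1l1* was lower in WAR N at −0.76 (SE 0.15, adjusted p = 0.00400), and −0.75 (adjusted p = 0.00187) without replicate 1 of Wistar N. *Plpp3* (probe set 10870481), which encodes a phosphatase of lipid phosphates, had 10.61, 10.57, 10.97, 10.87 and 10.57 in WAR S, against 11.32 and 11.47 in Wistar S. All WAR S arrays were lower, replicates 3 and 4 being nearest to Wistar S, and the log2 fold change was −0.67 (SE 0.15, adjusted p = 0.0653). It passed the threshold without replicate 3 of WAR S (−0.74, adjusted p = 0.0490). The same held without replicate 3 of WAR N or replicate 1 of Wistar N, which enter only through the shared spread (adjusted p = 0.0489 and 0.0204). Naïve *Plpp3* read 10.52, 10.55, 10.25 and 10.76 in WAR N, against 10.86, 11.05, 11.23 and 11.19 in Wistar N. All WAR N arrays were lower than all Wistar N arrays, at −0.56 (SE 0.12, adjusted p = 0.00635) and, without replicate 1 of Wistar N, −0.64 (adjusted p = 0.000849).

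*Acsbg1* (probe set 10917568), an enzyme that activates long-chain fatty acids, had 10.91, 10.99, 11.25, 11.24 and 10.90 in WAR S, against 11.58 and 11.67 in Wistar S. The groups did not overlap, and the log2 fold change was −0.56 (SE 0.15, adjusted p = 0.175). Its naïve values were 10.73, 10.72, 10.86 and 11.23 in WAR N, against 11.27, 11.59, 11.46 and 11.69 in Wistar N. Replicate 4 of WAR N came close to replicate 1 of Wistar N, and the others were apart by more. *Acsbg1* was lower in WAR N at −0.62 (SE 0.13, adjusted p = 0.00464), and −0.70 (adjusted p = 0.000513) without that Wistar N array. *Cbs*, which encodes cystathionine beta-synthase, had −0.26 (SE 0.11, adjusted p = 0.614) in the stimulated and −0.32 (SE 0.09, adjusted p = 0.0237) in the naïve arrays, where it was lower, also without replicate 1 of Wistar N, at −0.30 (adjusted p = 0.0226). That call was lost without replicates 1, 2 or 3 of WAR N (adjusted p = 0.0714, 0.0503 and 0.0568) and without replicate 4 of Wistar N (adjusted p = 0.0561). *Aldoc*, a glycolytic aldolase of astrocytes, had −0.12 (SE 0.09, adjusted p = 1.00) and −0.21 (SE 0.07, adjusted p = 0.0579), in the same order, and passed the threshold in the naïve arrays without replicate 4 of WAR S (adjusted p = 0.0486) or after a further cyclic loess normalization (−0.28, adjusted p = 0.0115). Without replicate 1 of Wistar N, *Aldoc* was at −0.16 (adjusted p = 0.0860).

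The regulators and signaling genes held the only astrocyte gene that was higher in WAR N with all arrays. *F3* (probe set 10818708) encodes tissue factor, which starts blood coagulation. Its values were 9.54, 9.62, 9.66, 9.56 and 9.63 in WAR S, against 9.13 and 8.69 in Wistar S. The 5 WAR S arrays lay within a narrow range above both Wistar S arrays, which were themselves apart, and the log2 fold change was 0.69 (SE 0.17, adjusted p = 0.130). Without replicate 4 of Wistar N, which enters only through the shared spread, it passed the threshold (adjusted p = 0.0198). The naïve values of *F3* were 9.38, 9.21, 9.23 and 9.43 in WAR N, against 8.57, 8.27, 8.32 and 9.05 in Wistar N. All WAR N arrays were above all Wistar N arrays, and replicate 4 of Wistar N was nearest to them. *F3* was higher in WAR N at 0.76 (SE 0.14, adjusted p = 0.00329), a ratio of 1.69, and at 0.76 (adjusted p = 0.00127) without replicate 1 of Wistar N.

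*Ntsr2* (probe set 10940526) encodes a neurotensin receptor found on astrocytes, and its values were 10.03, 10.13, 9.998, 10.18 and 9.63 in WAR S, against 9.97 and 9.95 in Wistar S. The strains overlapped, and the log2 fold change was 0.03 (SE 0.15, adjusted p = 1.00). Naïve *Ntsr2* values were 9.53, 10.03, 9.91 and 9.92 in WAR N, against 10.58, 10.60, 10.53 and 10.35 in Wistar N. Here the groups were apart, replicate 1 of Wistar N lying with its own group. *Ntsr2* was lower in WAR N at −0.67 (SE 0.12, adjusted p = 0.00285), and −0.65 (adjusted p = 0.00132) without that array. *Bmpr1b* (probe set 10827068), a receptor for bone morphogenetic proteins, had 7.92, 8.10, 8.20, 8.10 and 8.06 in WAR S, against 8.10 and 8.27 in Wistar S. These groups overlapped, with a log2 fold change of −0.11 (SE 0.23, adjusted p = 1.00). Naïve *Bmpr1b* read 7.73, 7.86, 7.69 and 7.84 in WAR N, against 7.72, 8.54, 8.83 and 8.92 in Wistar N. Replicate 1 of Wistar N lay among the WAR N arrays, and the other 3 were clearly higher. *Bmpr1b* was lower in WAR N at −0.72 (SE 0.19, adjusted p = 0.0169), and −0.99 (adjusted p = 2.0e-06) without replicate 1 of Wistar N, but not without replicate 3 (−0.61, adjusted p = 0.0595) or replicate 4 of Wistar N (−0.58, adjusted p = 0.0528). The other 3 were *Fgfr3*, a fibroblast growth factor receptor, *Ndrg2*, an abundant astrocyte gene, and *Entpd2*, an enzyme that degrades extracellular ATP, with stimulated log2 fold changes of −0.23, −0.14 and −0.09 in this order. Their naïve values were −0.39 (SE 0.18, adjusted p = 0.134) for *Fgfr3*, 0.10 (SE 0.08, adjusted p = 0.373) for *Ndrg2* and 0.13 (SE 0.19, adjusted p = 0.660) for *Entpd2*. These became −0.58 (adjusted p = 0.00513), 0.18 (adjusted p = 0.0171) and 0.36 (adjusted p = 0.0370) without replicate 1 of Wistar N.

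**Figure D4:**
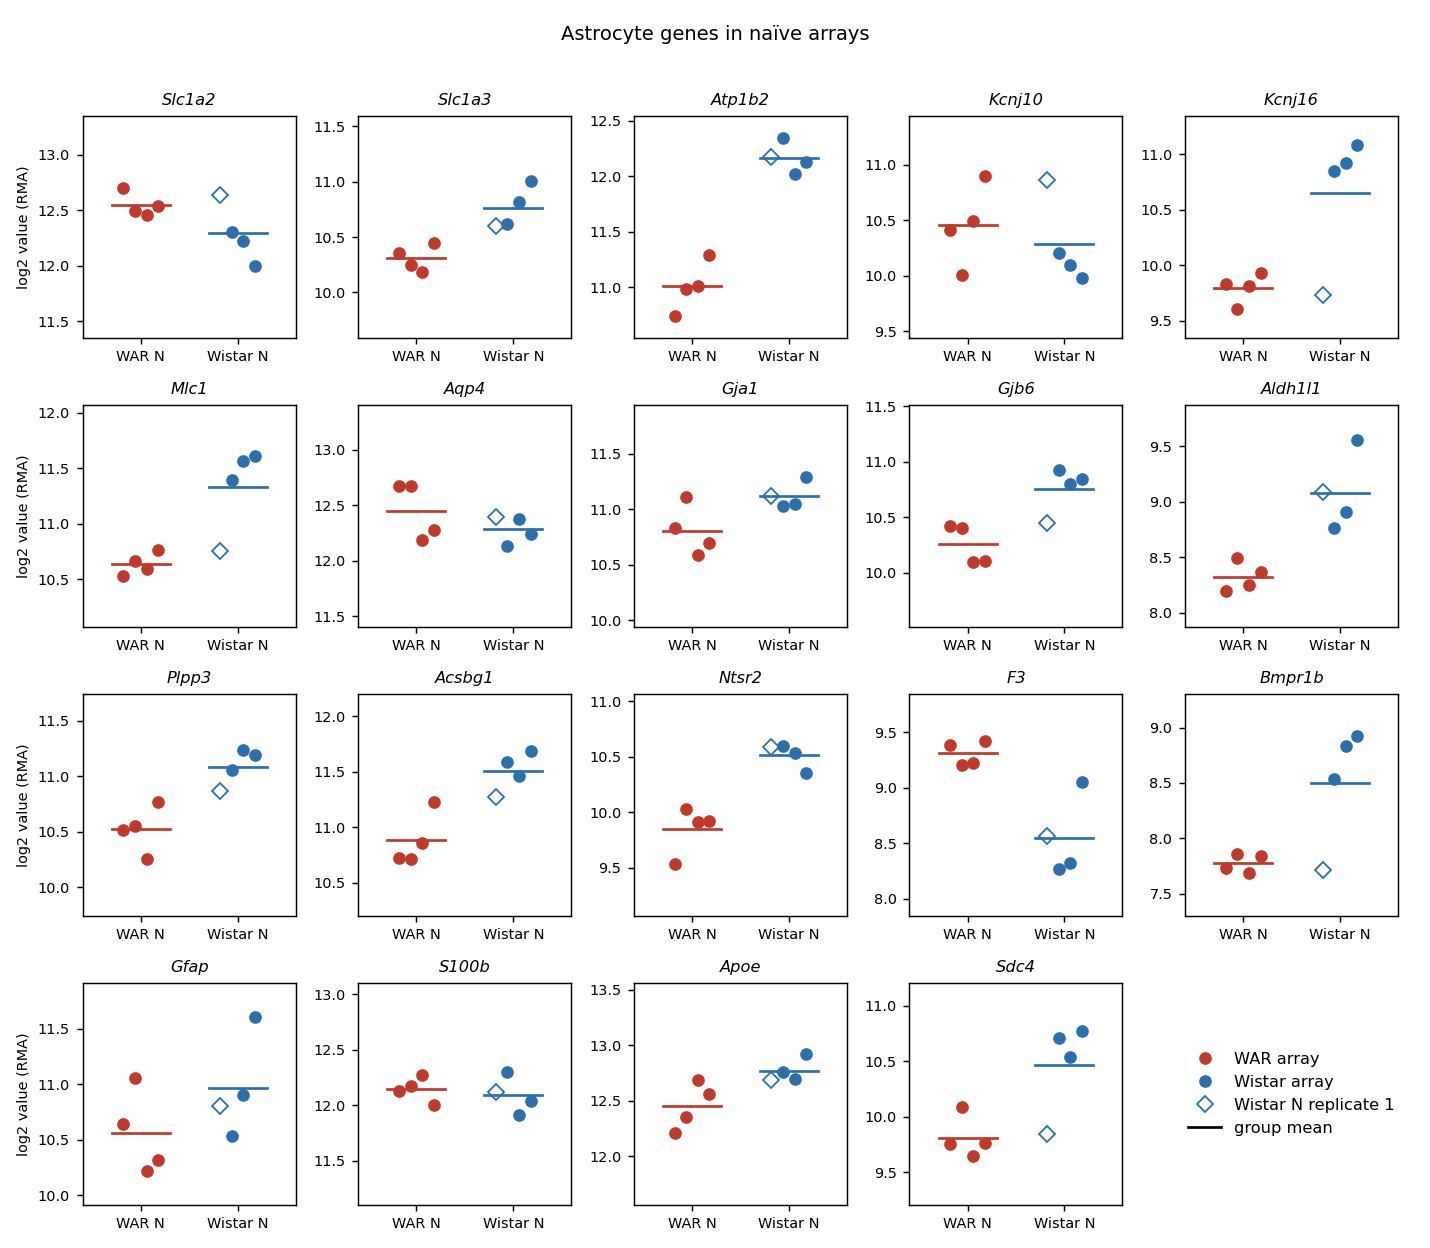
Log2 values (vertical axes, each spanning at least 2 log2 units) of the same 19 genes in the naïve arrays, 4 WAR N arrays at the left and 4 Wistar N arrays at the right of each panel, with group means as lines and replicate 1 of Wistar N as an open diamond. The diamond lies with WAR N in *Kcnj16*, *Mlc1*, *Bmpr1b* and *Sdc4* and with the other Wistar N arrays in *Atp1b2*, *Aldh1l1*, *Ntsr2* and *F3*.

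Among the structural and reactive genes, *Gfap* (probe set 10747948), the intermediate filament of astrocytes, had 10.97, 10.92, 10.60, 11.19 and 10.86 in WAR S, against 11.29 and 11.09 in Wistar S. The strains overlapped, with replicate 3 of WAR S lowest, and the log2 fold change was −0.28 (SE 0.26, adjusted p = 1.00). The naïve values of *Gfap* were 10.64, 11.05, 10.22 and 10.32 in WAR N, against 10.81, 10.53, 10.90 and 11.61 in Wistar N. Both groups spread widely and overlapped, replicate 4 of Wistar N being the highest, and the log2 fold change was −0.40 (SE 0.22, adjusted p = 0.205), and −0.46 (adjusted p = 0.132) without replicate 1. Its 95% confidence interval was −0.83 to 0.27 in the stimulated and −0.87 to 0.06 in the naïve arrays, and both intervals contain 0. *S100b* (probe set 10832441), a calcium-binding protein, had 12.22, 12.31, 12.23, 12.31 and 12.24 in WAR S, against 12.43 and 12.46 in Wistar S. The Wistar S arrays were the highest by a small margin, with a log2 fold change of −0.18 (SE 0.10, adjusted p = 0.873). Naïve *S100b* read 12.13, 12.18, 12.27 and 12.00 in WAR N, against 12.12, 12.30, 11.91 and 12.04 in Wistar N. These groups overlapped throughout, and the log2 fold change was 0.05 (SE 0.08, adjusted p = 0.684), and 0.06 (adjusted p = 0.602) without replicate 1 of Wistar N.

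*Apoe* (probe set 10719530), the lipid carrier of astrocytes, had 12.30, 12.55, 12.74, 13.03 and 12.38 in WAR S, against 12.45 and 12.49 in Wistar S. WAR S ran from below to above both Wistar S arrays, with replicate 4 highest, and the log2 fold change was 0.13 (SE 0.17, adjusted p = 1.00). Naïve *Apoe* read 12.21, 12.36, 12.68 and 12.56 in WAR N, against 12.69, 12.76, 12.70 and 12.92 in Wistar N. The highest WAR N array was just under the lowest Wistar N array, and the log2 fold change was −0.32 (SE 0.14, adjusted p = 0.130), and −0.34 (adjusted p = 0.0881) without replicate 1 of Wistar N. *Sdc4* (probe set 10851599), a heparan sulfate proteoglycan of the cell surface, had 10.01, 10.02, 9.76, 10.03 and 9.86 in WAR S, against 9.86 and 9.81 in Wistar S. The Wistar S arrays lay within the range of WAR S, with a log2 fold change of 0.10 (SE 0.20, adjusted p = 1.00). Naïve *Sdc4* read 9.76, 10.08, 9.64 and 9.76 in WAR N, against 9.85, 10.71, 10.53 and 10.77 in Wistar N. Replicate 1 of Wistar N lay among the WAR N arrays, and its 3 companions were higher. *Sdc4* was lower in WAR N at −0.65 (SE 0.16, adjusted p = 0.0133), and −0.86 (adjusted p = 1.6e-05) without replicate 1 of Wistar N. *Clu*, a secreted chaperone, *Mt3*, a zinc-binding metallothionein, and *Gpc5*, a glypican, had stimulated log2 fold changes of −0.27, 0.05 and −0.28 in this order, none of them called. In the naïve arrays *Clu* had −0.27 (SE 0.11, adjusted p = 0.0864), *Mt3* had 0.01 (SE 0.13, adjusted p = 0.963) and *Gpc5* had −0.40 (SE 0.21, adjusted p = 0.198). *Clu* stood at −0.20 (adjusted p = 0.139) and *Mt3* at −0.09 (adjusted p = 0.630) without replicate 1 of Wistar N. *Clu* passed the threshold without replicate 4 of WAR N (−0.35, adjusted p = 0.0313), and *Gpc5* without replicate 1 of Wistar N (−0.69, adjusted p = 1.0e-04).

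The 4 other transporters were called in neither comparison with all arrays. *Slc7a11*, which encodes the exchanger of cystine for glutamate, had log2 values of 9.66, 9.93, 9.96, 10.17 and 9.92 in WAR S, against 10.47 and 10.50 in Wistar S. All WAR S arrays were below Wistar S, and the log2 fold change was −0.56 (SE 0.20, adjusted p = 0.465). Its naïve log2 fold change was 0.18 (SE 0.17, adjusted p = 0.504), with overlapping groups, and 0.25 (adjusted p = 0.303) without replicate 1 of Wistar N. *Slc39a12*, a zinc transporter, had 8.39, 8.42, 8.38 and 8.65 in WAR N, against 7.51, 9.75, 10.04 and 7.99 in Wistar N. Wistar N split into a low pair (replicates 1 and 4) and a high pair (replicates 2 and 3) that lay on either side of WAR N, a wider spread than in any other group of an astrocyte gene here, and the log2 fold change was −0.36 (SE 0.42, adjusted p = 0.583), and −0.80 (adjusted p = 0.0705) without replicate 1. The pairs are those of the running numbers described below. In the stimulated arrays *Slc39a12* had 0.04 (SE 0.50, adjusted p = 1.00), where the SE rests on the spread shared by all groups, the naïve ones included. *Slc15a2*, a peptide transporter, and *Ttyh1*, a membrane protein of glia, had −0.27 and −0.18 in the stimulated arrays, and 0.05 (SE 0.10, adjusted p = 0.782) and 0.15 (SE 0.16, adjusted p = 0.562) in the naïve ones. When replicate 1 of Wistar N was left out, *Slc15a2* was at 0.09 (adjusted p = 0.540) and *Ttyh1* was higher in WAR N, at 0.36 (adjusted p = 0.00699).

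The difference between the stimulated and the naïve strain effect was tested for each gene. With all arrays 0 of 33 astrocyte genes were called, where 0.103% of all genes were, and 6 of 33 had an unadjusted p of at most 0.05, against 15.0% of all genes. The lowest adjusted p was that of *Ntsr2*, whose difference of effects was 0.70 (SE 0.19, adjusted p = 0.128). The other large positive differences were those of *Sdc4* (0.76, SE 0.26, adjusted p = 0.193) and *Bmpr1b* (0.61, SE 0.30, adjusted p = 0.352), and the most negative were those of *Kcnj10* (−0.93, SE 0.35, adjusted p = 0.231), *Slc7a11* (−0.73, SE 0.27, adjusted p = 0.228) and *Slc1a2* (−0.51, SE 0.17, adjusted p = 0.194). *Atp1b2*, lower in WAR N and with a negative value in WAR S, had a difference of 0.54 (SE 0.20, adjusted p = 0.230). Without replicate 1 of Wistar N, 5 astrocyte genes had a higher and 6 a lower strain effect in stimulated arrays, where 20.4% of all genes were called (10.5% higher and 9.85% lower). *Sdc4*, *Bmpr1b*, *Kcnj16*, *Ntsr2* and *Mlc1* were the 5, with values of 0.96 (adjusted p = 0.000623), 0.87 (adjusted p = 0.000634), 0.85 (adjusted p = 0.000264), 0.68 (adjusted p = 0.0243) and 0.42 (adjusted p = 0.0180). *Kcnj10*, *Slc7a11*, *Slc1a2*, *Ttyh1*, *Slc25a18* and *Ndrg2* were the 6, with values of −1.12 (adjusted p = 0.0159), −0.80 (adjusted p = 0.0473), −0.62 (adjusted p = 0.00349), −0.53 (adjusted p = 0.0142), −0.42 (adjusted p = 0.0237) and −0.32 (adjusted p = 0.0138). The number of such calls thus changed with 1 array, and array weights also gave 5 higher and 6 lower, where 23.1% of all genes were called. With the weights *Slc15a2* was among the 6 and *Slc25a18* was not. Neither fit is an independent check, since the array was singled out, and the weights were set, from these same values.

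The genes that clear glutamate, potassium, ions and water, 9 of 11 listed, were set beside the structural and reactive genes, 7 of 7 listed. In the stimulated arrays 9 of 9 clearance genes and 4 of 7 structural and reactive genes had negative log2 fold changes, with medians of −0.31 and −0.18 and 0 called in either group. Over all genes, 44.4% were negative. The count of 9 was found in every one of the 26 settings that tested all 9 genes. Many of these settings, such as those that leave out a naïve array, cannot change a stimulated log2 fold change. In the naïve arrays 4 of 9 clearance genes were lower in WAR N and the other 5 had positive values, where 9.38% of all genes were lower and 45.5% were negative. Their median of 0.06 had no stable sign. It lay between −0.01 and 0.10 as single arrays were left out, and was −0.21 in label set 1 and −0.09 in label set 2, the sets of running numbers described below, and −0.32 with the gap junction genes counted in. Of the structural and reactive genes, 5 of 7 were negative in the naïve arrays, with a median of −0.32, and 1, *Sdc4*, was called. The mean log2 level over the 9 clearance genes lay between 11.03 and 11.19 in WAR S arrays and between 11.42 and 11.54 in Wistar S arrays. Among naïve arrays it lay between 10.90 and 11.10 in WAR N and between 11.23 and 11.29 in Wistar N. These ranges did not overlap in either comparison, and replicate 1 of Wistar N, at 11.25, lay with its group. The naïve mean was carried by some of the genes, since the median deviation of the 9 genes from their naïve means overlapped, at −0.29 to 0.04 in WAR N arrays and −0.13 to 0.06 in Wistar N arrays. By task, the naïve mean levels were apart for the potassium and ion genes (10.48 to 10.85 in WAR N, 11.01 to 11.14 in Wistar N) and overlapped for glutamate (11.02 to 11.17 in WAR N, 10.99 to 11.35 in Wistar N) and for water and volume (11.39 to 11.67 in WAR N, 11.57 to 11.97 in Wistar N). Over the 7 structural and reactive genes the mean lay between 10.96 and 11.17 in WAR S and between 11.11 and 11.13 in Wistar S, and between 10.80 and 10.95 in WAR N and between 10.90 and 11.39 in Wistar N, with overlap in both comparisons. Over the 5 metabolic enzymes the mean log2 level lay between 10.27 and 10.63 in WAR S and between 10.83 and 10.90 in Wistar S, and between 10.15 and 10.42 in WAR N and between 10.67 and 10.90 in Wistar N, without overlap. The difference between the 2 lists was not tested.

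Each gene can also be set side by side in the stimulated and the naïve comparison, which share no array. The log2 fold change was negative in both for 16 of 33 astrocyte genes (48.5%), against 24.1% of all genes, and positive in both for 2, *F3* and *Mt3*, against 34.1% of all genes. It was negative in stimulated and positive in naïve arrays for 11, of which 5 were clearance genes (*Slc1a2*, *Slc25a18*, *Kcnj10*, *Slc4a4* and *Aqp4*), and the reverse for 4 (*Apoe*, *Ntsr2*, *Sdc4* and *Slc39a12*). For the 5 clearance genes the order of the naïve strains depended on the array that was set against WAR N. Against replicate 1 of Wistar N, the WAR N mean differed by −0.09 for *Slc1a2*, −0.40 for *Slc25a18*, −0.40 for *Kcnj10*, −0.03 for *Slc4a4* and 0.06 for *Aqp4*. Against the mean of the other Wistar N arrays it differed by 0.37, 0.26, 0.36, 0.09 and 0.20 in the same order. Over all 33 genes the WAR N mean was below replicate 1 of Wistar N in 24, against 50.3% of all genes, and below the mean of the others in 21, against 42.8% of all genes.

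**Figure D5:**
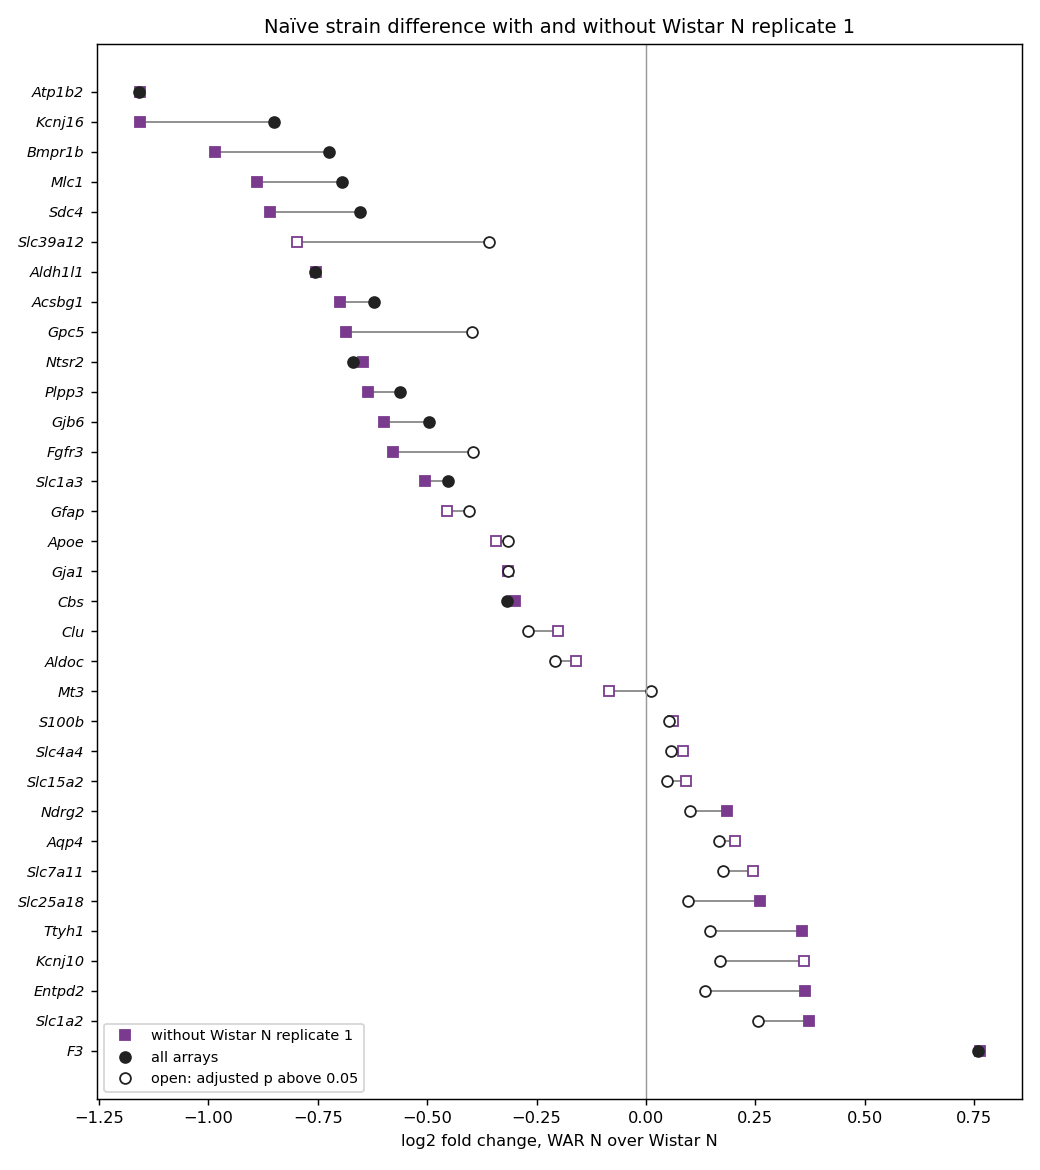
Log2 fold change of WAR N over Wistar N (horizontal axis) for the 33 astrocyte genes without replicate 1 of Wistar N (squares) and with all arrays (circles), filled where the adjusted p was at most 0.05. The number of filled marks is 20 without that array and 13 with it, *Atp1b2* and *F3* hardly move, and *Kcnj16* moves to −0.85 with all arrays, against −1.16 without the array.

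The sample descriptions carry running numbers that fall into 2 sets, which no source calls a batch. Set 1 held replicates 1, 2 and 5 of WAR S, both Wistar S arrays, replicates 1 and 2 of WAR N and replicates 1 and 4 of Wistar N, and set 2 held the rest, with no Wistar S array. Within set 1 the stimulated log2 fold change was negative in 31 of 33 astrocyte genes with 0 called (0.0965% of all genes), and its median was −0.21. With the set as a block, 3 astrocyte genes were lower in WAR S, where 0.317% of all genes were, namely *Atp1b2* (−0.71, adjusted p = 0.0269), *Acsbg1* (−0.66, adjusted p = 0.0347) and *Plpp3* (−0.73, adjusted p = 0.0347). In the naïve arrays of set 1, 3 genes were lower and 0 higher (0.758% and 0.738% of all genes), the 3 being *Atp1b2*, *Aldh1l1* and *Acsbg1*. In those of set 2, 11 were lower and 3 higher (12.9% and 11.3% of all genes), and 10 of the 13 genes called with all arrays were called there. *Slc39a12* was lower in WAR N within set 2 (−1.38, adjusted p = 0.000916), and *Entpd2* (0.45, adjusted p = 0.0340) and *Kcnj10* (0.55, adjusted p = 0.0393) were higher. The naïve counts with the set as a block were 12 lower and 1 higher, where 9.64% of all genes were lower and 12.4% higher.

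Other genes of the same tasks were read from further lists. Of 22 further genes of glutamate, GABA, ion and water handling, 15 were measured, and 1 was lower in WAR S, *Glud1*, which encodes glutamate dehydrogenase, at −0.70 (adjusted p = 0.0212). The median of the 15 was −0.15 in the stimulated and −0.10 in the naïve arrays. In WAR N, *Glud1* (−0.87, adjusted p = 0.000327), *Slc6a11*, the GABA transporter of astrocytes (−0.79, adjusted p = 0.0120), and *Clcn2*, a chloride channel (−0.26, adjusted p = 0.0142), were lower, and *Fxyd1*, a regulator of the sodium pump (0.86, adjusted p = 0.0213), was higher, so that 3 of 15 were lower and 1 was higher, where 9.38% and 11.6% of all genes were. With replicate 1 of Wistar N left out the values were −0.996 (adjusted p = 2.1e-07), −0.85 (adjusted p = 0.00416), −0.25 (adjusted p = 0.0106) and 1.16 (adjusted p = 5.1e-05) in the same order. Of 26 further genes linked to reactive astrocytes, 23 were measured, and 0 were called in the stimulated arrays, with a median of 0.11. In WAR N 4 of the 23 (17.4%) were higher and 0 lower, with a median of 0.12, where 11.6% of all genes were higher. The 4 were *Timp1*, an inhibitor of metalloproteinases (0.86, adjusted p = 0.00274), *Osmr*, a cytokine receptor (0.62, adjusted p = 0.0123), *Cxcl10*, a chemokine (0.39, adjusted p = 0.00523), and *Gbp2*, an interferon-induced GTPase (0.32, adjusted p = 0.0218). Without replicate 1 of Wistar N, 8 were higher and 1 lower, where 22.6% of all genes were higher and 18.5% lower, and the values of the 4 became 0.99 (adjusted p = 6.2e-05), 0.75 (adjusted p = 0.000629), 0.45 (adjusted p = 0.000441) and 0.40 (adjusted p = 0.000842) in the same order. *Vim*, of the same list, also turned on that array. It read 10.19 to 10.83 in WAR N, against 10.99 in replicate 1 of Wistar N and 8.89 to 9.40 in the other Wistar N arrays.

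Markers of other cell types were read in the same arrays, where 0.2% of all genes were lower and 0.214% higher in WAR S, and 9.38% lower and 11.6% higher in WAR N (18.5% and 22.6% without replicate 1 of Wistar N). Endothelial markers (16 of 16 measured) had positive values in all 16 genes in both comparisons, with medians of 0.52 in the stimulated and 0.42 in the naïve arrays. Their mean log2 level lay between 7.72 and 8.15 in WAR S, against 7.28 and 7.32 in Wistar S, and between 7.67 and 8.12 in WAR N, against 7.11 to 8.04 in Wistar N, where replicate 1 held 8.04 and the others 7.11 to 7.17. Without that array 12 of the 16 were higher in WAR N, with a median of 0.73. Of these, *Tek*, an angiopoietin receptor, was higher in WAR S (1.09, adjusted p = 0.0212), and 5 were higher in WAR N, among them *Emcn* (1.37, adjusted p = 0.00545) and *Ocln* (0.99, adjusted p = 0.00318), which stood at 1.76 (adjusted p = 3.8e-07) and 1.16 (adjusted p = 5.0e-05) without that array. Among 12 measured microglia markers *P2ry12*, a purine receptor, was higher in WAR S (0.89, adjusted p = 0.000486) and in WAR N (1.26, adjusted p = 1.9e-06), and *Trem2*, *C1qb* and *Tmem119* were higher in WAR N. In *Trem2*, *C1qb* and *Tmem119* every WAR N array lay above all Wistar N arrays, replicate 1 included, as in 7.93% of all genes. Not all of the list went that way. *C1qc* read 7.41 to 7.67 in WAR N, against 7.26 in replicate 1 of Wistar N and 8.14 to 8.21 in the others. *Itgam* read 5.73 to 6.14, against 5.94 and 6.09 to 6.59 in the same order. *P2ry12* was at 1.24 (adjusted p = 9.3e-08) in WAR N without replicate 1 of Wistar N. The mean level of the microglia list lay between 8.07 and 8.40 in WAR S, against 7.97 and 8.04 in Wistar S, and between 8.04 and 8.13 in WAR N, against 7.71 to 7.84 in Wistar N. Of 6 oligodendrocyte precursor markers *Olig1* (−1.15, adjusted p = 0.00175), *Gpr17* (−0.78, adjusted p = 0.00653) and *Pdgfra* (−0.63, adjusted p = 0.00754) were lower in WAR N, and 0 were called in the stimulated arrays. These stood at −1.35 (adjusted p = 1.2e-05), −0.64 (adjusted p = 0.00465) and −0.77 (adjusted p = 0.000172) without replicate 1 of Wistar N. Neuron markers (16) had 6 lower and 1 higher in WAR N, led by *Slc32a1* (−1.14, adjusted p = 0.00232) and *Nefm* (−1.04, adjusted p = 0.0268), and 0 called in the stimulated arrays. Without that array 6 were lower and 4 higher, with *Slc32a1* at −1.27 (adjusted p = 0.000154) and *Nefm* at −1.44 (adjusted p = 2.2e-05). Oligodendrocyte markers (11) had *Mog* higher and *Mag* lower in WAR N, and 7 measured ependymal markers had *Cfap126* and *Rarres2* higher there. In the choroid plexus list (6) 0 genes were called in either comparison, with a mean level between 6.14 and 6.41 in WAR S, against 6.61 and 6.63 in Wistar S. Of 11 cerebellum markers, *Cbln1* was lower in WAR N (−0.89, adjusted p = 0.00515), and of 5 red blood cell markers *Hbb* was lower in WAR S (−1.17, adjusted p = 0.0212) and in WAR N (−0.67, adjusted p = 0.0136). The naïve values without replicate 1 of Wistar N were −0.998 (adjusted p = 0.000616) for *Cbln1* and −0.72 (adjusted p = 0.00552) for *Hbb*. The part of these cell types in the astrocyte results was not tested.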

How the data were processed

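RNA of the inferior colliculus was labelled with a whole-transcript kit and hybridized to Affymetrix Rat Gene 1.0 ST arrays. The log2 values were deposited by the authors after robust multi-array average (RMA) processing per the labels, which corrects background, normalizes quantiles across arrays and gives 1 value per probe set. The RMA version and the genome build of the array design are not given in the sources used here. The table held 29214 probe sets in 15 arrays with no missing value and no detection call, so that weak genes could not be set apart from background. Precision is limited by how many arrays each group has. The platform annotation gave 15310 probe sets 1 gene symbol, 323 several and 13581 none, and the brightest probe set of each gene gave 14506 genes. From these values limma 3.58.1 under R 4.3.3 (functions lmFit and eBayes, prior degrees of freedom 3.09, residual degrees of freedom 11) fitted the 4 group means over all 15 arrays, so that the groups shared an estimate of the spread. Within the stimulated and within the naïve arrays WAR was compared with Wistar, and the difference between both effects was tested, each two-sided with Benjamini-Hochberg adjustment over all 14506 genes and a threshold of 0.05. The fit was tested on simulated data. The members and the gene lists were chosen with earlier results of these data known. Values in every array are given for the naïve calls by size up to 12 and for a fixed set of well-known astrocyte genes. Those of *Slc7a11* and *Slc39a12* were added after their values were seen. From the other lists up to 4 called genes are given by size. Alternatives were cyclic loess, array weights, a trended and robust variance, a filter on the dimmest genes, all probe sets, the mean over probe sets, the compared groups alone, the fold and p thresholds of the study's methods, the replicate number or the label set as a block, each label set alone, other list boundaries and each array left out. Matches of motifs were counted in RefSeq promoters of GRCr8. Python 3.11.15, pandas 2.3.3, numpy 2.4.6 and matplotlib 3.10.9 were used.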

Additional observations from a re-analysis of the deposited data

How the results depend on the processing

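Of the 33 astrocyte genes, 27 to 31 had negative values in the stimulated arrays over 26 settings, and 20 to 24 in the naïve arrays over 27 settings, while the number of calls changed more. Many of these settings, such as leaving out a naïve array for the stimulated comparison, cannot change a sign. In the stimulated arrays the calls numbered 0 lower and 0 higher, but 2 and 1 when the compared groups alone were fitted, 15 and 1 with array weights, 3 lower with the label set as a block, and 0 to 2 lower and 0 to 1 higher as single arrays were left out. In the naïve arrays they numbered 12 lower and 1 higher, but 3 and 0 in label set 1, 5 lower in the compared groups alone, 3 higher in label set 2 and with array weights, and 1 and 0 under the thresholds of the study's methods (fold of at least 2). Leaving out single arrays gave 9 to 14 lower and 1 to 6 higher, with the highest counts without replicate 1 of Wistar N. Calls of the difference between the effects numbered 5 higher and 6 lower with array weights, and 0 to 5 and 0 to 6 as single arrays were left out. Deviations of arrays with the same replicate number correlated at 0.03 and −0.05 in the stimulated and at 0.06, 0.02, −0.20 and −0.31 in the naïve arrays. This cannot exclude a pairing of samples, because deviations within a group sum to 0 and those of the 2 Wistar S arrays mirror each other. With the replicate number as a block, the naïve counts were 12 lower and 1 higher and the others 0. The cause of these changes was not tested.

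The median log2 fold change of all measured members in the naïve arrays was −0.24 in label set 1 and −0.22 in label set 2. That of their difference between the comparisons was −0.028 with the replicate block and −0.017 in label set 1. The clearance median in the stimulated arrays was −0.47 with the replicate block and −0.40 with the label set block. The naïve clearance median changed sign, to −0.21 in label set 1, −0.090 in label set 2 and −0.32 when gap junction genes were counted in, where the median difference was −0.069. The structural and reactive median difference was 0.014 with the replicate block and −0.011 to 0.18 as single arrays were left out.

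Signs were followed for the 19 genes named by size or by name, and those that turned were of values not called. In label set 1, *Apoe* (−0.059) and *Ntsr2* (−0.029) turned in the stimulated and *Kcnj10* (−0.21) in the naïve arrays, and in label set 2 *Aqp4* (−0.025) turned in the naïve arrays. With the label set block, *Ntsr2* was at −0.018 in the stimulated arrays. The difference between the effects turned to 0.20 for *F3* in label set 1, and to −0.028 with the replicate block and −0.034 with the label set block for *Acsbg1*. As single arrays were left out, it ranged from −0.092 to 0.29 for *Gfap*, −0.15 to 0.0061 for *Slc1a3*, −0.0055 to 0.17 for *Gja1*, −0.29 to 0.15 for *F3* and −0.0026 to 0.17 for *Acsbg1*. In the same way *S100b* ranged from −0.0081 to 0.12 in the naïve and *Ntsr2* from −0.013 to 0.13 in the stimulated arrays.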
